A study of Mus musculus with 6 samples.

Results

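DNA replication and nucleotide supply genes were followed in mouse bone marrow-derived macrophages (BMDM) cultured with LLC cells and then given β-elemene or PBS. The set was chosen by gene symbol and holds 44 of the 21878 genes in the table, ordered here by what their proteins do at the replication fork. It comprises 4 licensing genes, 12 helicase genes, 8 polymerase and primase genes, 6 clamp and clamp loader genes, 6 genes of single-strand binding and Okazaki fragment maturation, 5 genes of nucleotide supply and 3 genes of chromatin assembly on new DNA.

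The macrophages came from wild-type C57BL/6 marrow grown with 50 ng/mL macrophage colony-stimulating factor. For 48 h a membrane with 0.4 µm pores separated them from LLC cells, which derive from a mouse lung tumour. After a change of medium, 3 libraries were made from cells given 100 µg/mL β-elemene, a plant sesquiterpene, for 24 h, and 3 from cells given the same volume of PBS for 24 h. The library names carry M1 for β-elemene and M2 for PBS, which the labels do not explain, and macrophages kept without LLC cells are not analysed here.

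Before a cell enters S phase, the origin recognition complex, Cdc6 and Cdt1 load the ring-shaped MCM2-7 helicase onto origins, which is called licensing. Cdc45 and the GINS complex then turn that ring into a working helicase, DNA polymerase alpha-primase lays down primers, and polymerases delta and epsilon extend them while held to DNA by the Pcna clamp. Ribonucleotide reductase and thymidylate enzymes supply the deoxynucleotides. Many of these genes are transcribed in S phase through E2F factors, and macrophage precursors cycle in response to macrophage colony-stimulating factor before they mature.

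Libraries held between 18916844 and 20550078 gene counts with β-elemene and between 20524959 and 20729887 with PBS. Values are given in libraries 1, 2 and 3 of a group, as CPM (counts scaled to a common library total) after scaling by trimmed means of M values (TMM), whose factors ran between 0.794 and 0.812 with β-elemene and between 1.24 and 1.26 with PBS. A gene was called higher or lower where edgeR's quasi-likelihood test gave a Benjamini-Hochberg adjusted p under 0.05 over the 11459 genes tested. The labels do not say that libraries came from separate cultures or animals, and the p-values therefore reflect how far these 6 libraries vary, possibly for technical reasons. Macrophage markers summed to between 15412 and 16042 CPM with β-elemene and between 12580 and 13546 CPM with PBS, with 5 of 8 called higher and 3 of 8 called lower. Csf1r, the receptor for macrophage colony-stimulating factor, averaged 928 ± 66.1 CPM with β-elemene and 2671 ± 82.3 CPM with PBS (SD, n = 3 each). Epithelial markers summed to at most 0.0615 CPM with β-elemene and 0.155 CPM with PBS, with Krt19 and Cldn4 at 0 in all 6 libraries. T cell, B cell, erythroid and dendritic cell markers each summed to at most 4.45 CPM in any library.

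With β-elemene, 30 of the 44 genes fell, 3 rose and 11 did not pass the test. Thus 68.2% of the 44 were called lower and 6.82% higher, against 40.2% called lower and 36.6% called higher over all genes tested. All 44 entered the test. Of these, Orc1, Cdc6, Cdc45 and Pole2 met the minimum level in every PBS library but not in every β-elemene library, so a difference was built into their entry. Among the 40 genes at that level in all 3 β-elemene libraries, 27 fell and 3 rose (67.5% and 7.5%), beside 37.5% and 39.6% of the 10547 such genes tested. The 3 that rose were Mcm10, Rfc3 and Tyms. The median log2 fold change of the 44 genes was -0.90, beside -0.06 over all genes tested. In bulk RNA, fewer cells in S phase and less RNA of these genes per cell cannot be told apart.

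Of the 44 genes, 20 were called lower by at least 2-fold, beside 18.3% of all genes tested, and 5 by at least 4-fold, beside 7.22%. The 5 were Mcm2 and Mcm7 of the helicase, Rrm2 of ribonucleotide reductase, Cdc6 of licensing and Pole2 of polymerase epsilon. Without the 4 genes that entered through the PBS libraries, which include Cdc6 and Pole2, 17 were lower by at least 2-fold and 3 by at least 4-fold. Of the 10547 genes tested that met the minimum level in all 3 β-elemene libraries, 1474 were lower by at least 2-fold and 411 by at least 4-fold. All 3 β-elemene libraries lay below all 3 PBS libraries for 31 genes and above them for 5, beside 42% and 37.9% of all genes tested. Together the 44 genes took 0.0560%, 0.0578% and 0.0593% of all counts in the β-elemene libraries, against 0.121%, 0.110% and 0.114% in the PBS libraries. A share of all counts amounts to scaling by library size alone, under which 69.8% of all genes tested were called lower, so most other genes also took a smaller share. The exact binomial 95% intervals of the highest β-elemene library (0.0583% to 0.0604%) and the lowest PBS library (0.109% to 0.112%) did not meet, which covers counting error only. Scaled, the 44 genes summed to 700, 712 and 747 CPM with β-elemene, against 963, 888 and 918 CPM with PBS.

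**Figure D1:**
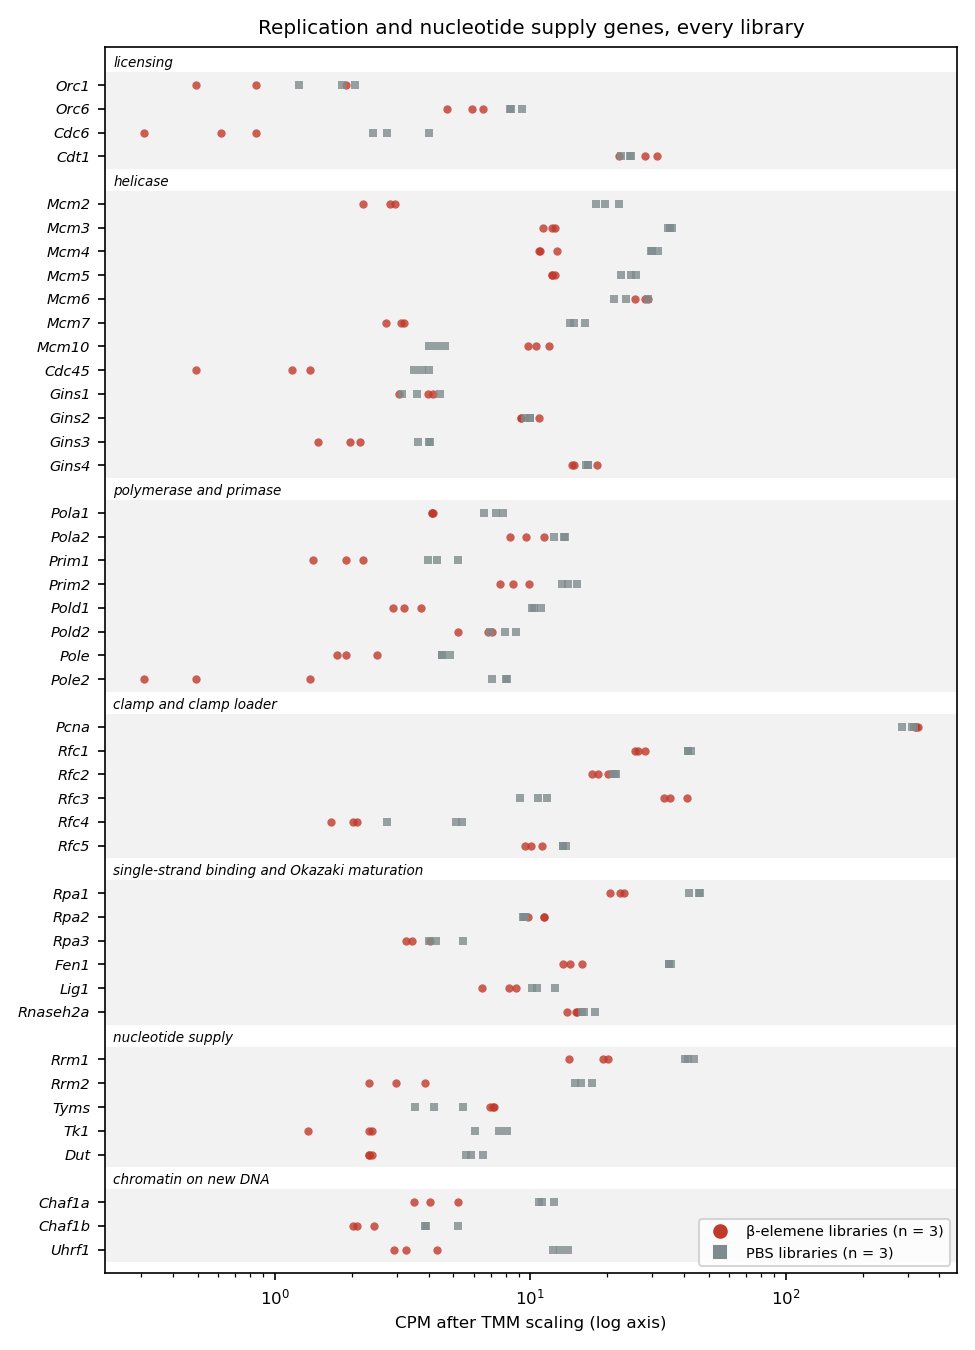
Level of each of the 44 genes in every library, in CPM after TMM scaling on a log axis, with circles for the 3 β-elemene libraries and squares for the 3 PBS libraries, grouped by role. Circles lie to the left of squares for 31 genes and to the right for 5, Mcm10, Rfc3, Tyms, Pcna and Rpa2.

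Scaling bears on how many of these genes are called. With library size alone, the median of all genes tested shifted by -0.64 on the log2 scale. That scaling gave 41 of the 44 genes lower and 2 higher, beside 69.8% and 18.9% of all genes. Upper quartile scaling shifted it by -0.32 and gave 37 lower and 2 higher, beside 57% and 25.7% of all genes. These scalings move all genes by a common amount, so the difference of -0.84 between the median of the 44 genes and that of all genes is nearly fixed by construction and says nothing of stability. Median-of-ratios factors gave 29 lower and 3 higher, beside 38.3% of all genes in each direction. DESeq2 gave 29 and 3, beside 36.7% and 37.2%, and limma-voom 30 and 3, beside 40% and 36.6%.

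**Figure D2:**
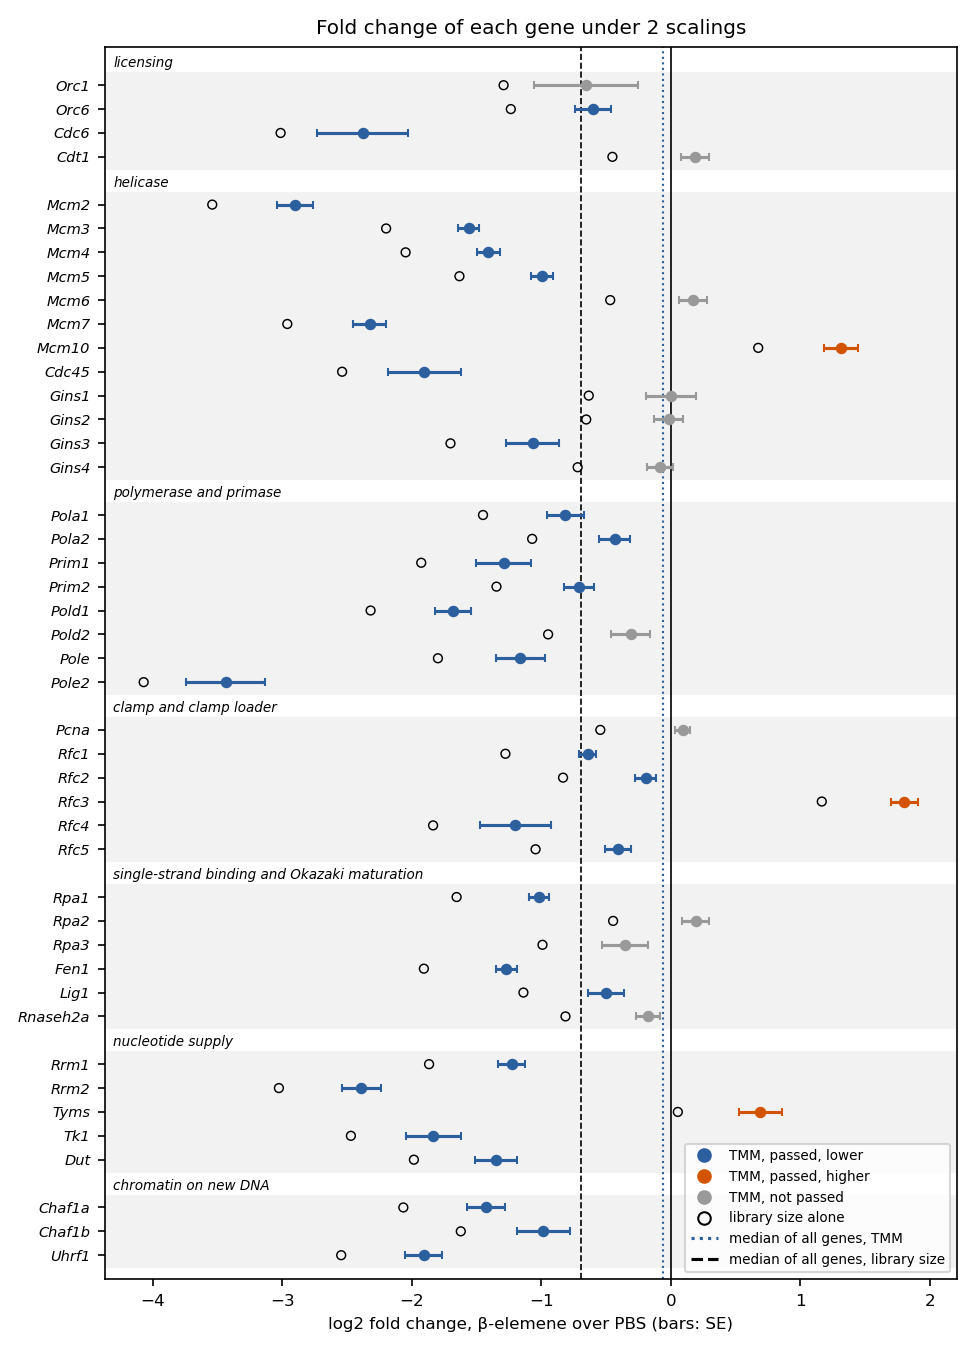
Log2 fold change of each gene, β-elemene over PBS, with TMM scaling (filled, bars are SE) and with library size alone (open). Every open point lies left of its filled point by about the distance between the dotted and dashed lines, the medians of all genes under each scaling, and Mcm10 and Rfc3 stay right of both lines under either.

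Of the 4 licensing genes, 2 fell and 2 did not pass. Thus 50% were called lower, beside 40.2% of all genes tested, a share that also stands beside the later counts by role. Cdc6, the ATPase that joins the origin recognition complex to load MCM rings, was the most reduced, at 0.307, 0.846 and 0.613 CPM in the β-elemene libraries, against 4.03, 2.76 and 2.42 CPM in the PBS libraries. The raw counts behind those β-elemene levels were 5, 13 and 10, and the groups did not overlap (log2 fold change -2.38 ± 0.35 SE, adjusted p = 3.2e-05). Cdc6 and Orc1 met the minimum level in every PBS library but not in every β-elemene library, so a difference was built into their entry. A processed pseudogene matches 33.1% of the Cdc6 transcript at 95% identity or more, so its level is uncertain. Orc6, the smallest subunit of the origin recognition complex, also fell, with a log2 fold change of -0.60. Cdt1, which brings the MCM ring to the origin, stood at 28.2, 22.2 and 31.4 CPM in the β-elemene libraries, against 24.5, 22.6 and 24.7 CPM in the PBS libraries. The Cdt1 groups overlapped and the test did not pass (log2 fold change 0.19 ± 0.11 SE, adjusted p = 0.14), although it called Cdt1 higher without β-elemene replicate 2 (0.34, adjusted p = 0.0023). Orc1, a large ATPase subunit of the origin recognition complex, stood at 0.492, 0.846 and 1.90 CPM in the β-elemene libraries, against 2.05, 1.83 and 1.25 CPM in the PBS libraries. Library 3 of the β-elemene group lay among the PBS values and the other 2 below them (log2 fold change -0.65 ± 0.40 SE, adjusted p = 0.16), and without that library Orc1 was called lower (-1.34, adjusted p = 0.011). With library size alone, both Cdt1 (-0.45) and Orc1 (-1.29) were called lower, and with upper quartile scaling Orc1 (-0.97) was.

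In the MCM2-7 ring, in which each subunit is present once, 5 of the 6 genes fell and Mcm6 did not pass the test. Mcm2 (chr6:88883474-88898780), a subunit that also binds histones, stood at 2.95, 2.21 and 2.82 CPM in the β-elemene libraries, against 22.2, 19.7 and 18.1 CPM in the PBS libraries. Among the 40 genes at the minimum level in all 3 β-elemene libraries it had the lowest log2 fold change, and every β-elemene library lay below the lowest PBS library (log2 fold change -2.90 ± 0.14 SE, adjusted p = 3.6e-10). Mcm7 stood at 3.20, 2.73 and 3.13 CPM in the β-elemene libraries, against 16.4, 14.3 and 14.8 CPM in the PBS libraries. Its fall was of similar order (log2 fold change -2.32 ± 0.13 SE, adjusted p = 1.5e-09). Reads of Mcm7 could also match a processed pseudogene over 72.8% of its transcript at 95% identity or more, so its level is uncertain.

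Mcm3 stood at 11.2, 12.2 and 12.4 CPM in the β-elemene libraries, against 35.8, 34.7 and 35.2 CPM in the PBS libraries (log2 fold change -1.56 ± 0.079 SE, adjusted p = 5.6e-10). Mcm4, whose protein is a target of the kinase that fires origins, stood at 10.9, 10.8 and 12.7 CPM in the β-elemene libraries, against 31.7, 30.1 and 29.6 CPM in the PBS libraries (log2 fold change -1.41 ± 0.089 SE, adjusted p = 5.9e-09). Neither gene's groups overlapped. Mcm5 stood at 12.5, 12.2 and 12.2 CPM in the β-elemene libraries, against 25.9, 22.7 and 24.8 CPM in the PBS libraries and fell just short of 2-fold (log2 fold change -0.99 ± 0.087 SE, adjusted p = 2.0e-07). Mcm6 (chr1:128331575-128359705) stood at 28.2, 25.8 and 29.0 CPM in the β-elemene libraries, against 28.9, 21.2 and 23.7 CPM in the PBS libraries. The Mcm6 groups overlapped, with PBS replicate 1 inside the β-elemene range, and the test did not pass (log2 fold change 0.17 ± 0.11 SE, adjusted p = 0.16). Without PBS replicate 1 Mcm6 was called higher (0.30, adjusted p = 0.015), while with library size alone it was called lower (-0.47).

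Dividing counts by exon length lets the 6 MCM subunits be set side by side, on the scale of shares. Mcm6 made up 34.4%, 32.7% and 33.7% of the summed MCM2-7 level per kilobase in the β-elemene libraries, against 14.1%, 11.6% and 12.6% in the PBS libraries. Mcm2 made up 4.67%, 3.64% and 4.25% with β-elemene, against 14.1%, 13.9% and 12.5% with PBS. Mcm7 held 5.41 ± 0.32% with β-elemene and 11.7 ± 0.17% with PBS (SD, n = 3 each). Mcm6 was thus the most abundant of the 6 per length in all 3 β-elemene libraries, whereas Mcm3 was in all 3 PBS libraries. These shares were chosen after the values were seen and carry no test. With counts not divided by length, the difference in share (β-elemene minus PBS) was 23.7 percentage points for Mcm6 and -9.48 for Mcm2, against 20.8 and -9.32 per kilobase.

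Of the 6 genes for factors that activate the ring, 2 fell, 1 rose and 3 did not pass. Cdc45, which binds MCM and GINS in the working helicase, stood at 0.492, 1.37 and 1.16 CPM in the β-elemene libraries, against 4.03, 3.77 and 3.51 CPM in the PBS libraries and fell without overlap (log2 fold change -1.90 ± 0.28 SE, adjusted p = 3.7e-05). The β-elemene levels of Cdc45 rest on 8, 21 and 19 counts. It met the minimum level in every PBS library but not in every β-elemene library, so a difference was built into its entry. Gins3 stood at 1.97, 2.15 and 1.47 CPM in the β-elemene libraries, against 3.64, 4.0 and 4.05 CPM in the PBS libraries and was the only GINS gene called lower (log2 fold change -1.07 ± 0.20 SE, adjusted p = 3.4e-04). The other 3 GINS genes overlapped between groups and did not pass.

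Gins1 stood at 3.07, 4.17 and 3.98 CPM in the β-elemene libraries, against 4.41, 3.61 and 3.16 CPM in the PBS libraries (log2 fold change 0.0034 ± 0.19 SE, adjusted p = 0.99). Gins2 stood at 9.16, 9.18 and 10.8 CPM in the β-elemene libraries, against 9.52, 10.0 and 9.98 CPM in the PBS libraries (log2 fold change -0.016 ± 0.11 SE, adjusted p = 0.90). Gins4 stood at 14.5, 14.8 and 18.3 CPM in the β-elemene libraries, against 16.9, 16.6 and 16.9 CPM in the PBS libraries (log2 fold change -0.081 ± 0.10 SE, adjusted p = 0.47). All 3 were called lower with library size alone, at -0.63, -0.65 and -0.72, and with upper quartile scaling Gins2 (-0.33) and Gins4 (-0.40) were. Gins2 shares 67.3% of its exon bases with Gse1 on the opposite strand, and the strand setting of the counting is not given, so reads of that pair may be mixed. Mcm10, which binds the helicase and helps it start, went the other way, at 10.6, 9.83 and 11.8 CPM in the β-elemene libraries, against 4.65, 4.0 and 4.33 CPM in the PBS libraries. It rose about 2.48-fold with no overlap (log2 fold change 1.31 ± 0.13 SE, adjusted p = 7.0e-07) and stayed higher with library size alone, at 0.68.

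Promoter sequence was read for the 37 of these genes found in RefSeq's promoter table (GRCm38.p6), as the 250 bases before the transcription start. The E2F-type motif was searched as TTTCCCGC, TTTCGCGC, TTTGCCGC and TTTGGCGC on both strands. It occurred for 9 of the 37 genes (24.3%), Cdc6, Gins3, Mcm5, Mcm6, Mcm7, Orc1, Pola1, Rfc3 and Uhrf1, beside 362 of 8913 tested genes (4.06%) and 1.86% of all windows of that length. By call, it occurred for 6 of the 26 genes that fell, 1 of the 3 that rose and 2 of the 8 that did not pass. The windows of 3 genes are printed to set a gene that fell, one that did not pass and one that rose side by side, with matched letters in capitals.
Mcm5 (fell, chr8:75109259-75109508, plus strand): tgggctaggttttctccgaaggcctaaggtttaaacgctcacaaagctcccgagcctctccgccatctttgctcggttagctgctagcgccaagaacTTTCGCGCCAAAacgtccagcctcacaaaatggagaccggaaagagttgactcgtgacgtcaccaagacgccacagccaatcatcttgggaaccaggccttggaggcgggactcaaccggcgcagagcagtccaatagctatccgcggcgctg
Mcm6 (did not pass, chr1:128359706-128359955, minus strand): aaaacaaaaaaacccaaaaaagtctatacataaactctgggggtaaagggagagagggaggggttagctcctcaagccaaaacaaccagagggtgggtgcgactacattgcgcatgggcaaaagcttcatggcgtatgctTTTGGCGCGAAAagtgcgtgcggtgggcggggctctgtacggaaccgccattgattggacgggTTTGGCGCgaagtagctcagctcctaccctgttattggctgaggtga
Rfc3 (rose, chr5:151651209-151651458, minus strand): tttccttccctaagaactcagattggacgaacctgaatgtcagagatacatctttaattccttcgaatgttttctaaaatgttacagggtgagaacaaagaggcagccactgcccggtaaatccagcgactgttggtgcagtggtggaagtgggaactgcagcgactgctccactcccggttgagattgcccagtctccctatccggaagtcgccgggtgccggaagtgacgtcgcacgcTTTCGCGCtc
In the Mcm5 window TTTCGCGC begins 153 bases before the start and overlaps GCGCCAAA, the reverse complement of TTTGGCGC, which begins 149 bases before it. In the Mcm6 window TTTGGCGC begins 110 bases before the start and overlaps GCGCGAAA, the reverse complement of TTTCGCGC, at 106, with a further TTTGGCGC at 47. In the Rfc3 window TTTCGCGC begins 10 bases before the start. The motif thus stood before genes of all 3 kinds of call, and a match of letters is not a measurement of binding.

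Among polymerase and primase genes, 7 of 8 fell and Pold2 did not pass. Pole2 (chr12:69201773-69228205), the second subunit of the leading-strand polymerase epsilon, had few counts with β-elemene. It met the minimum level in every PBS library but not in every β-elemene library. It stood at 0.492, 1.37 and 0.306 CPM in the β-elemene libraries, against 8.13, 7.11 and 8.03 CPM in the PBS libraries. The β-elemene levels rest on 8, 21 and 5 counts and vary among themselves by several fold, yet all lay below the PBS libraries (log2 fold change -3.44 ± 0.31 SE, adjusted p = 4.8e-07). Pole, the catalytic subunit of the same enzyme, stood at 1.91, 1.76 and 2.51 CPM in the β-elemene libraries, against 4.53, 4.505 and 4.83 CPM in the PBS libraries (log2 fold change -1.16 ± 0.19 SE, adjusted p = 8.6e-05). Pold1, the catalytic subunit of the lagging-strand polymerase delta, stood at 2.89, 3.19 and 3.74 CPM in the β-elemene libraries, against 10.3, 11.03 and 10.2 CPM in the PBS libraries (log2 fold change -1.68 ± 0.14 SE, adjusted p = 9.7e-08). No groups overlapped for these 3 genes.

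Prim1, the primase subunit that makes the RNA primer, stood at 1.41, 2.21 and 1.90 CPM in the β-elemene libraries, against 5.23, 4.31 and 3.98 CPM in the PBS libraries and also fell without overlap (log2 fold change -1.29 ± 0.21 SE, adjusted p = 9.9e-05). Its partners in polymerase alpha-primase fell by less than 2-fold, with log2 fold changes of -0.81 for the catalytic subunit Pola1, -0.71 for the large primase subunit Prim2 and -0.43 for the accessory subunit Pola2. Pold2, an accessory subunit of polymerase delta, stood at 5.23, 7.09 and 6.80 CPM in the β-elemene libraries, against 8.79, 7.96 and 6.94 CPM in the PBS libraries. PBS replicate 3 lay inside the β-elemene range and the test did not pass (log2 fold change -0.31 ± 0.15 SE, adjusted p = 0.073), although without that library Pold2 was called lower (-0.40, adjusted p = 0.042). It was also called lower with upper quartile scaling (-0.63, adjusted p = 0.0017) and with library size alone (-0.95, adjusted p = 4.2e-05).

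Per kilobase, Pole2 took 1.11%, 3.30% and 0.644% of the 4 polymerase epsilon subunits in the β-elemene libraries, against 16.4%, 15.0% and 16.5% in the PBS libraries. Pole4, a histone-fold subunit, took 70.6 ± 0.13% with β-elemene and 47.1 ± 2.16% with PBS (SD, n = 3 each). The groups did not overlap for either share. With counts not divided by length, the Pole2 difference was -12.04 percentage points, against -14.3 per kilobase.

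Of the 6 clamp and clamp loader genes, 4 fell, Rfc3 rose and Pcna did not pass. Pcna (chr2:132249286-132253180), the ring that holds polymerases on DNA, stood at 322, 325 and 330.5 CPM in the β-elemene libraries, against 319, 285 and 312 CPM in the PBS libraries. All 3 β-elemene libraries lay above the PBS libraries by a small margin, and the test did not pass (log2 fold change 0.093 ± 0.059 SE, adjusted p = 0.16). With library size alone (-0.54) and with upper quartile scaling (-0.22), Pcna was called lower. A processed pseudogene matches 51.4% of the Pcna transcript at 95% identity or more, so its level is uncertain. Without Pcna, the other genes summed to 378, 387 and 416 CPM with β-elemene, against 644, 603 and 606 CPM with PBS.

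Rfc3 (chr5:151642817-151651208), a small subunit of the replication factor C complex that opens the clamp, had the highest log2 fold change of the 44 genes. It stood at 35.4, 33.5 and 41.1 CPM in the β-elemene libraries, against 11.7, 10.7 and 9.12 CPM in the PBS libraries. The 3.49-fold rise showed no overlap (log2 fold change 1.80 ± 0.11 SE, adjusted p = 3.8e-09) and stayed at 1.17 with library size alone. Rfc4, another small subunit, stood at 2.09, 2.02 and 1.65 CPM in the β-elemene libraries, against 5.38, 2.76 and 5.11 CPM in the PBS libraries. It fell (log2 fold change -1.20 ± 0.27 SE, adjusted p = 0.0013), with PBS replicate 2 well below the other PBS libraries. Rfc4 shares 12.65% of its exon bases with Eif4a2 on the opposite strand, so reads of that pair may be mixed. Eif4a2 itself fell and averaged 129 CPM with β-elemene and 176 CPM with PBS. The large subunit Rfc1 (-0.64) and the small subunit Rfc5 (-0.41) fell by less than 2-fold. For Rfc5, a processed pseudogene matches 36.5% of the transcript at 96.2% identity, so the level of Rfc5 is uncertain.

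Rfc2 stood at 20.2, 18.4 and 17.5 CPM in the β-elemene libraries, against 21.4, 21.7 and 21.1 CPM in the PBS libraries. The groups did not overlap but the difference was small (log2 fold change -0.19 ± 0.083 SE, adjusted p = 0.046), and leaving out any library except β-elemene replicate 1 ended the call, with adjusted p up to 0.20. Rfc2 shares 15.1% of its exon bases with Lat2 on the opposite strand, which itself fell. Per kilobase, Rfc3 made up 65.3%, 64.4% and 69.7% of the 5 loader subunits in the β-elemene libraries, against 29.5%, 29.6% and 24.6% in the PBS libraries. The 4 other subunits each took a smaller share with β-elemene in every library. The Rfc3 difference was 38.6 percentage points per kilobase and 27.4 with counts not divided by length.

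**Figure D3:**
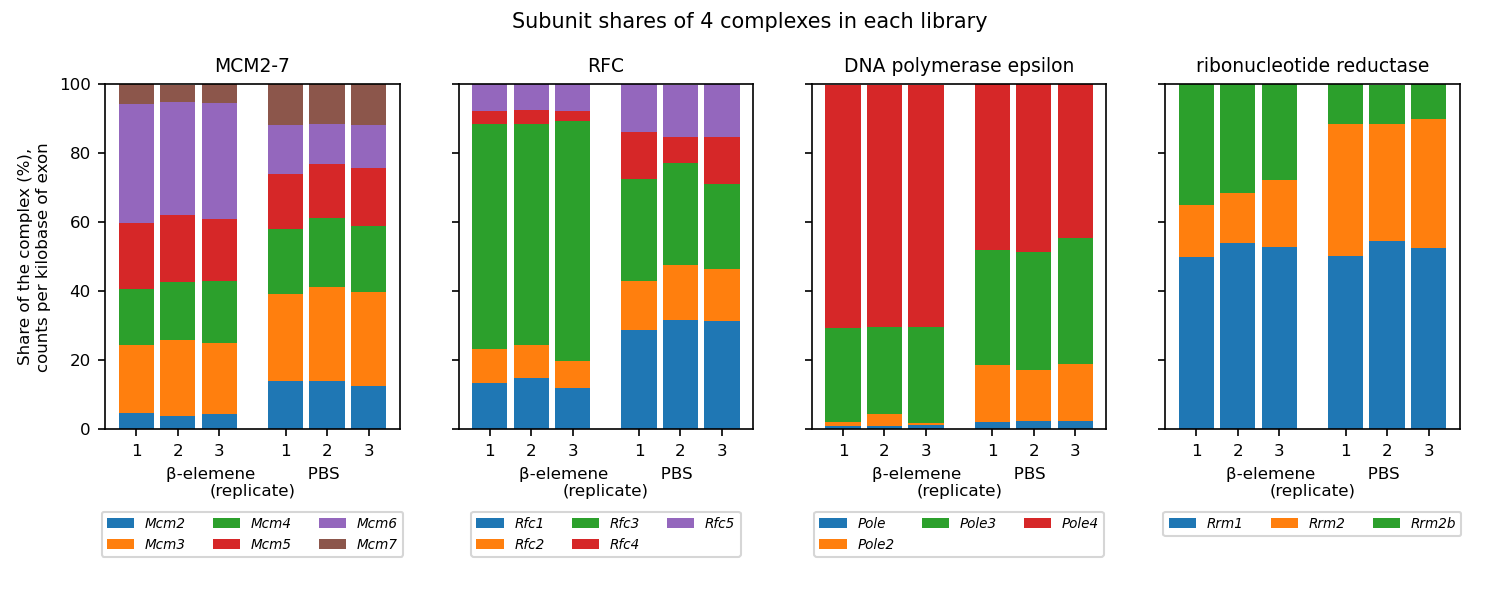
Share of each subunit in the summed level of MCM2-7, the clamp loader (RFC), DNA polymerase epsilon and ribonucleotide reductase, in percent of counts per kilobase of exon, for each library. Mcm6, Rfc3, Pole4 and Rrm2b take larger shares in every β-elemene bar than in any PBS bar, and the Rrm1 share averages 52.3% in both groups.

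Single-strand binding and Okazaki maturation genes included 3 that fell and 3 that did not pass, so 50% were called lower, beside 40.2% of all genes tested. Rpa1, the main DNA-binding subunit of replication protein A, stood at 22.4, 23.4 and 20.5 CPM in the β-elemene libraries, against 46.2, 46.0 and 41.9 CPM in the PBS libraries (log2 fold change -1.02 ± 0.075 SE, adjusted p = 3.3e-08). Fen1, the nuclease that trims primer flaps, stood at 13.5, 14.3 and 15.997 CPM in the β-elemene libraries, against 35.6, 35.0 and 35.0 CPM in the PBS libraries (log2 fold change -1.27 ± 0.081 SE, adjusted p = 7.3e-09). Both fell with no overlap, although 78.8% of Fen1 exon bases lie opposite an annotated antisense transcript. Lig1, the ligase that seals Okazaki fragments, fell by less than 2-fold (-0.50).

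Rpa2, the second replication protein A subunit, stood at 9.78, 11.3 and 11.3 CPM in the β-elemene libraries, against 9.49, 9.55 and 9.35 CPM in the PBS libraries. The β-elemene libraries lay just above the PBS libraries, and the test did not pass (log2 fold change 0.19 ± 0.11 SE, adjusted p = 0.12) except without β-elemene replicate 1 (0.28, adjusted p = 0.041). With library size alone Rpa2 was called lower (-0.45). Rpa3 stood at 3.26, 3.45 and 4.05 CPM in the β-elemene libraries, against 5.46, 4.0 and 4.29 CPM in the PBS libraries, with overlap (log2 fold change -0.35 ± 0.18 SE, adjusted p = 0.091). It was called lower with upper quartile scaling (-0.67, adjusted p = 0.0042) and with library size alone (-0.99, adjusted p = 1.6e-04). Rnaseh2a, the catalytic subunit of the nuclease that removes ribonucleotides from DNA, stood at 13.9, 15.3 and 15.1 CPM in the β-elemene libraries, against 17.9, 16.2 and 15.9 CPM in the PBS libraries (log2 fold change -0.18 ± 0.092 SE, adjusted p = 0.096). Its β-elemene libraries lay just below the PBS libraries, and it was called lower with upper quartile scaling (-0.49) and with library size alone (-0.81).

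Of the 5 nucleotide supply genes, 4 fell and Tyms rose. Rrm2 (chr12:24708254-24714146), the small subunit of ribonucleotide reductase made in S phase, stood at 2.34, 2.99 and 3.86 CPM in the β-elemene libraries, against 17.5, 15.0 and 15.8 CPM in the PBS libraries (log2 fold change -2.39 ± 0.15 SE, adjusted p = 7.6e-09). Rrm1, the large subunit, stood at 14.2, 20.1 and 19.2 CPM in the β-elemene libraries, against 41.6, 43.7 and 40.2 CPM in the PBS libraries (log2 fold change -1.23 ± 0.11 SE, adjusted p = 3.6e-07). Both fell without overlap. Rrm2b, the alternative small subunit that serves cells outside S phase, averaged 12.1 ± 1.13 CPM with β-elemene and 10.1 ± 1.14 CPM with PBS (SD, n = 3 each) and did not pass (log2 fold change 0.26 ± 0.12 SE, adjusted p = 0.06). Per kilobase, Rrm2 took 16.3 ± 2.63% of the 3 subunits with β-elemene and 36.6 ± 2.26% with PBS, and Rrm2b took 31.4 ± 3.65% with β-elemene and 11.04 ± 0.85% with PBS (SD, n = 3 each). The share of Rrm1 was 52.3% in both groups, with overlap. With counts not divided by length, the Rrm2 difference was -14.4 percentage points, against -20.3 per kilobase.

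Tk1, the thymidine kinase of the salvage route, stood at 2.34, 2.41 and 1.35 CPM in the β-elemene libraries, against 8.09, 6.06 and 7.56 CPM in the PBS libraries (log2 fold change -1.83 ± 0.21 SE, adjusted p = 3.1e-06). Dut, which clears dUTP, stood at 2.40, 2.34 and 2.33 CPM in the β-elemene libraries, against 5.61, 6.52 and 5.89 CPM in the PBS libraries (log2 fold change -1.35 ± 0.16 SE, adjusted p = 5.0e-06). Neither gene's groups overlapped. Tyms, thymidylate synthase, stood at 6.95, 7.22 and 7.17 CPM in the β-elemene libraries, against 5.46, 3.53 and 4.21 CPM in the PBS libraries. It was higher in every β-elemene library (log2 fold change 0.69 ± 0.17 SE, adjusted p = 0.0019), but its call was lost with upper quartile scaling and with library size alone, where the log2 fold change was 0.054. Parts of the Tyms transcript match other transcripts at 95% identity or more.

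All 3 genes of chromatin on new DNA fell. Uhrf1, which recruits the maintenance methyltransferase to newly copied DNA, stood at 4.30, 2.93 and 3.25 CPM in the β-elemene libraries, against 14.1, 12.3 and 13.1 CPM in the PBS libraries (log2 fold change -1.91 ± 0.14 SE, adjusted p = 4.4e-08). Chaf1a, the large subunit of chromatin assembly factor 1, stood at 5.23, 4.04 and 3.49 CPM in the β-elemene libraries, against 12.4, 10.8 and 11.1 CPM in the PBS libraries (log2 fold change -1.43 ± 0.15 SE, adjusted p = 1.1e-06). The groups did not overlap for either. Reads of Uhrf1 could also match a processed pseudogene over 44.3% of its transcript at 98.3% identity, so the level of Uhrf1 is uncertain. Chaf1a shares 52.5% of its exon bases with Ubxn6 on the opposite strand, which was called higher with a log2 fold change of only 0.17. Chaf1b, its partner, fell by 0.98 on the log2 scale.

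Other genes of the pathway were read from lists of related factors. Of those named from these lists, Ticrr, Clspn, Dctd, E2f2, Bub1b and Cenpf, like Pole2, met the minimum level in every PBS library but not in every β-elemene library. Beside every list stand 40.2% called lower and 36.6% called higher over all genes tested (median -0.06). At the minimum level in all 3 β-elemene libraries these shares were 37.5% and 39.6% (median 0.002). Of 15 other licensing and origin firing genes, 10 fell, 3 rose and 2 did not pass, with a median log2 fold change of -0.62. Among the 13 of them at that level in all 3 β-elemene libraries, 8 fell and 3 rose (median -0.42). Ticrr, which helps recruit Cdc45 (-2.71, on 4, 6 and 3 counts with β-elemene), and Gmnn, the inhibitor of Cdt1 (-2.04), fell, whereas Mcmbp, which binds MCM proteins (1.81), and Mcm9, a helicase of DNA repair (1.06), rose. Of 14 other fork and Okazaki factors, 10 fell and 4 rose (median -0.85). Among the 12 of them at that level in all 3 β-elemene libraries, 8 fell and 4 rose (median -0.39). Clspn, the adaptor of the replication checkpoint (-3.60, on 9, 5 and 12 counts with β-elemene), and Wdhd1, which ties polymerase alpha to the helicase (-3.50), fell, while Timeless, of the fork protection complex (3.27), and Rnaseh2b, a partner of Rnaseh2a (1.42), rose. Timeless stood at 35.5, 33.3 and 43.7 CPM in the β-elemene libraries, against 4.22, 3.73 and 3.74 CPM in the PBS libraries, and the groups did not overlap.

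Of 4 other polymerase subunits, Pold4 (-1.42) and Pole3 (-0.50) fell and Pole4 (0.46) and Pold3 (0.40) rose, the last 2 turning lower with library size alone (-0.18 and -0.23). Of 27 other nucleotide supply genes, 20 fell, 3 rose and 4 did not pass (median -1.10). Among the 25 of them at the minimum level in all 3 β-elemene libraries, 18 fell and 3 rose (median -0.80). Dctd, which deaminates dCMP (-3.56, on 2, 3 and 5 counts with β-elemene), and Ctps, which makes CTP (-2.83), fell. Samhd1, the enzyme that breaks down deoxynucleotides in resting myeloid cells, stood at 3391, 3277 and 3595 CPM in the β-elemene libraries, against 362, 327 and 363 CPM in the PBS libraries. It rose 9.76-fold without overlap (log2 fold change 3.29 ± 0.076 SE, adjusted p = 2.5e-13). Dck, the deoxycytidine kinase of the salvage route, rose as well (1.23).

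Of 7 other genes of chromatin on new DNA, 4 fell, 2 rose and 1 did not pass (median -0.90). The H3-H4 chaperones differed, since Asf1b fell (-1.57) and Asf1a rose (1.71). Hells, a chromatin remodeller, fell (-1.503), and Nasp, another histone chaperone, rose (0.44) but turned lower with library size alone (-0.20). Of 20 E2F and S-phase regulators, 12 fell, 6 rose and 2 did not pass (median -1.04). Among the 15 of them at the minimum level in all 3 β-elemene libraries, 7 fell and 6 rose (median -0.12). Cyclin Ccna2 fell (-3.31), and so did E2f2 (-3.46, on 4, 0 and 6 counts with β-elemene). Rbl1, a repressive partner of E2F factors, rose (log2 fold change 3.58 ± 0.092 SE, adjusted p = 1.9e-12), and so did Cdkn1a, the p21 inhibitor of cyclin-dependent kinases (log2 fold change 1.503 ± 0.075 SE, adjusted p = 5.3e-10).

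All 14 mitosis and proliferation markers fell (median -2.22), as did the 11 of them at the minimum level in all 3 β-elemene libraries (median -2.14). Bub1b (-4.26) rests on 6, 9 and 12 counts and Cenpf (-3.81) on 10, 7 and 12 counts with β-elemene. Mki67, the proliferation antigen, stood at 63.7, 61.4 and 62.5 CPM in the β-elemene libraries, against 108.6, 93.9 and 123 CPM in the PBS libraries. These markers moved in the same direction as most of the 44 genes. Fibroblast markers, which summed to between 1.56 and 3.38 CPM with β-elemene and between 12.7 and 16.3 CPM with PBS, had 3 of 5 called lower. Neutrophil and granulocyte precursor markers summed to between 20.7 and 23.4 CPM with β-elemene and between 8.65 and 11.6 CPM with PBS, with 2 of 6 called higher and 1 lower. S100a8 (1.97) and S100a9 (0.53) rose, whereas Mpo fell (-3.35, on 5, 1 and 1 counts with β-elemene and 33, 52 and 34 with PBS). Elane, which was not tested, had 0, 0 and 1 counts with β-elemene, against 6, 3 and 12 with PBS. Whether either group of cells has a part in the values of the replication genes was not tested.

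**Figure D4:**
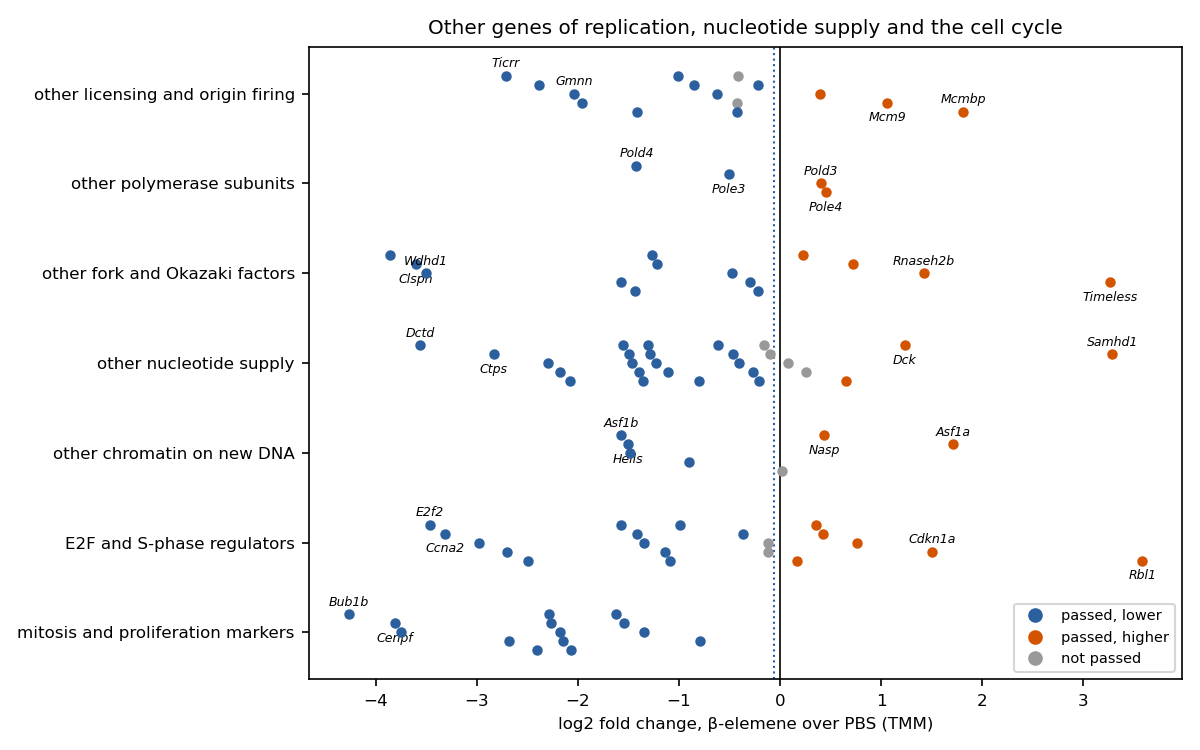
Log2 fold change, β-elemene over PBS with TMM scaling, of genes in 7 lists around replication, 1 point per gene, coloured by the edgeR call, with the median of all genes tested as a dotted line. The mitosis list lies wholly left of the line, while Samhd1, Timeless and Rbl1 stand above 3.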

How the data were processed

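Read counts for each gene were deposited by the authors as whole numbers whose totals differ between libraries. They were made from stranded poly(A) libraries read as paired ends, per the labels' protocols. Per the submitters' processing notes, the tool listed is HISAT2 2.2.1.0 and the builds listed are mm10 and GRCm38.p6. How reads were counted, and whether strand was used, is not given in the sources used here, so overlapping antisense genes and near-identical copies are uncertain.

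All 21878 gene rows and all 6 sample columns were read, with 0 other sample columns, and 27 symbols that had been turned into dates were restored. Genes with at least 10 counts at the median library depth in 3 libraries and 15 in total were kept (0.487 CPM). Counts were scaled by TMM and tested with edgeR 4.0.16 (R 4.3.3) with group as the only term, a robust quasi-likelihood fit, and Benjamini-Hochberg adjustment over all 11459 genes at a threshold of 0.05. The SE is the log2 fold change divided by the root of F. The steps were run on simulated data in which few genes changed, equally up and down. A scaling difference between groups like the one seen here was therefore not tested. Exon lengths came from basic protein-coding transcripts of the GENCODE annotation, copies were sought with BLAST 2.17.0 (at least 95% identity over 150 bases), and promoters came from RefSeq. Where a gene had several starts, up to 3 windows were searched. Overlaps with opposite-strand genes are percentages of the exon bases of all annotated transcripts of a gene, not only of the basic protein-coding ones.

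The members and lists were chosen with earlier results of these data known. Members are named by role, with values in every library where a called change was at least 2-fold or the call depended on scaling. From each other list the 2 largest rises and falls among called genes averaging at least 1 CPM are named. Alternatives were median-of-ratios, upper quartile and library-size scaling, other filters, DESeq2 1.42.0, limma-voom (limma 3.58.1), a replicate block, the omission of single libraries and, chosen after seeing the data, subunit shares of counts not divided by length and counts of genes at the minimum level in all 3 β-elemene libraries. One count was worth between 0.0387 and 0.0651 CPM, which limits the precision of genes with few counts, such as Cdc6, Cdc45, Pole2, Orc1, Ticrr, Clspn, Dctd and E2f2.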

Additional observations from a re-analysis of the deposited data

How the results depend on the processing

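Of the 44 genes, 29 to 41 were called lower and 2 to 4 higher over the 14 alternatives, with 29 to 30 lower and 3 to 4 higher when a library was left out. Of all genes, 4347 to 4477 were called lower and 4021 to 4296 higher when a library was left out. With library size alone, 8003 of all genes were called lower and 2166 higher, against 4602 and 4189 under TMM, and the values turned to -0.45 for Cdt1, -0.47 for Mcm6, -0.63 for Gins1, -0.54 for Pcna, -0.45 for Rpa2, -0.18 for Pole4, -0.23 for Pold3 and -0.20 for Nasp. Upper quartile scaling turned Cdt1 to -0.13, Mcm6 to -0.14, Gins1 to -0.31, Pcna to -0.22 and Rpa2 to -0.12, of which Pcna alone was called. These 2 scalings differ from TMM by a shift common to all genes. Gins2, at -0.016 under TMM, was 0.025 with median-of-ratios factors and 0.024 with DESeq2, and Gins1 was -0.010 with no filter. With upper quartile scaling (-0.33) and with library size alone (-0.65), Gins2 was called lower. Leaving out each library moved Gins1 between -0.10 and 0.15 and Gins2 between -0.087 and 0.050. The difference in the share of counts was -0.0574 percentage points, ran between -0.0598 and -0.0544 without each library, and was -0.0652 outside the 10 most abundant genes. With a replicate block, 29 of the 44 genes were called lower and 3 higher, and Rfc2 lost its call (adjusted p = 0.056). The check of pairing did not correlate whole expression levels. In it, same-numbered libraries gave correlations of -0.033, 0.057 and 0.015, and not every library correlated best with its own number. These values give no sign of pairing, but with 3 libraries per group they cannot settle whether libraries were paired. Few counts with β-elemene limit Orc1, Cdc6, Cdc45 and Pole2, and at the minimum level in all 3 β-elemene libraries 27 of 40 genes were lower. Of all genes tested at that level, 37.5% were called lower.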
